A study of Monodelphis domestica and Mus musculus with 2 samples.

Results

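The genes described here are the potassium channel genes of primary visual cortex (V1), measured by Stereo-seq in 1 opossum section and 1 mouse section. A gene was taken as a member if its symbol began with Kcn and it was found in more than 8 cells of the section. Symbols ending in os or ps, with or without a digit, which mark opposite-strand transcripts and pseudogenes, were left out. Kcnq1ot1, a long noncoding RNA on the strand opposite to Kcnq1, lacks this ending and stayed a mouse member (1068 V1 UMIs). The rule used names and detection over the whole section, and no level, depth or cell label. It left 68 of 73 Kcn symbols in the opossum and 90 symbols (91 features) of 108 Kcn features in the mouse, out of 30613 and 61317 features in all. KCNA10, KCNA7, KCNJ1, KCNK16 and KCNV2 in the opossum, and Kcna7, Kcnj1, Kcnj15, Kcnk16, Kcnv2 and 1 feature named Kcnq1ot1 in the mouse, were in too few cells. The os or ps ending removed 11 mouse features. The members nearest the limit were KCNE1, found in 17 opossum cells, and Kcnk18, found in 9 mouse cells. The opossum was a male Monodelphis domestica of about 6 months, and the mouse a C57BL/6J male of about postnatal day 40. Both were untreated and carried no engineered allele that the labels name. Each gave 1 cut of 10 µm through a frozen block of coronal slices (2 mm, opossum, or 1 mm, mouse), which is called a section here. Sections were permeabilized for 12 min. The species thus differ in animal, age, section and RNA integrity number (at least 7.1 for opossum and 9 for mouse RNA) at once.

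Potassium channels let potassium leave the cell and thereby set the resting potential, the shape of the action potential and the rate at which a neuron can fire. Voltage-gated channels of the Kv1, Kv2, Kv3 and Kv4 subfamilies, the EAG group (Kcnh) and Kv7 (Kcnq) open when the membrane is depolarized, and silent Kv subunits form no channel alone but change Kv2 channels they join. Calcium- and sodium-activated channels (Kcnma1, Kcnn and Kcnt) follow activity, inward rectifiers (Kcnj) hold the membrane near rest or answer G proteins, and K2P channels (Kcnk), whose subunits carry a pair of pore loops, pass leak current. Auxiliary subunits (Kcnab, Kcnip, Kcne and Kcnmb) make no pore and change the gating or transport of the channels. In cortex, Kv3 channels are known for the fast spikes of parvalbumin interneurons, Kcnj10 for potassium uptake by astrocytes, and Kv4 and Kv7 channels for the excitability of pyramidal neurons.

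What pore-forming members share is the selectivity filter, a loop that reads threonine or serine, any residue, glycine, tyrosine or phenylalanine, glycine. The following stretches of 30 bases hold its last codons, glycine, tyrosine or phenylalanine, glycine, in capitals. They come from the mouse genome GRCm39 with GENCODE vM39 annotation, are given on the coding strand, and are shown because these 5 pore-forming genes were called in both species for the same end of the cortical depth or for paired cell labels, as described later.
Kcnc1 (chr7:46077391-46077420, plus strand, exon 2): atgacgacactgGGCTATGGAgacatgtat
Kcnh1 (chr1:192020056-192020085, plus strand, exon 7): ctcaccagtgtgGGCTTTGGTaacattgcc
Kcnh5 (chr12:75134231-75134260, minus strand, exon 7): cttacaaccataGGATTTGGAaacatagct
Kcnj10 (chr1:172196863-172196892, plus strand, exon 2): cagaccaccatcGGCTATGGCttccgctac
Kcnk2 (chr1:188988769-188988798, minus strand, exon 5): ctgacgaccattGGATTTGGAgactacgtg
The middle codon is TAT for tyrosine in Kcnc1 and Kcnj10 and TTT for phenylalanine in the EAG genes Kcnh1 and Kcnh5 and in the K2P gene Kcnk2. Searched in frame in the coding sequences of the mouse, the filter was present in 72 of 72 pore-forming members and in 0 of 16 auxiliary members, against 570 of 21770 coding genes (2.62%). Of the 13 K2P members, 9 held it more than once. A match is a description of the letters only.

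The sections held 80369 opossum and 120239 mouse cells, and 4806 and 9127 of them lay in the V1 regions that the authors drew, 3 for the opossum and 4 for the mouse. The median V1 cell of the opossum had 1326 UMIs and that of the mouse 1305. A UMI is 1 captured molecule with a poly-A end, and a level here is the UMIs of a gene per 10000 UMIs of all genes, summed over cells. With 1 animal per species there was no replicate and no test was run. Intervals are exact Poisson or conditional binomial intervals at 95% that cover counting error only. The spread over V1 regions is the spread within 1 animal. The paper places the regions of each species in more than 1 of the coronal slices, so this spread includes differences between slices. A segmented cell of a 10 µm section can hold RNA of its neighbours, and subclass labels were given by the authors from the expression of the same cells, so a difference between labels is a description. Marker genes listed for the labels were 3.90-fold higher (median of 28 markers, range 1.04 to 23.0) in their own label in the opossum and 2.98-fold higher (median of 39, range 0.909 to 22.8) in the mouse. The glutamatergic marker Slc17a7 stood at 0.99-fold in the mouse, and the microglial markers of the opossum held few UMIs in its Micro label. The cell barcodes of the species shared 43 numbers once the species prefix was removed, and 0 with it.

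Members accounted for 36605 of 6933475 V1 UMIs in the opossum, a level of 52.8 per 10000 (52.3 to 53.3), and for 86266 of 12522687 in the mouse, a level of 68.9 (68.4 to 69.3). Opossum regions ranged from 49.3 to 54.0 and mouse regions from 65.0 to 71.5, so that the ranges of the species did not overlap. These sums are over different gene lists, and over the 66 symbols that were members in both species the order turned, with 52.8 in the opossum and 47.7 in the mouse. Over the 50 of these with at least 100 UMIs in at least 1 species, the median opossum-over-mouse ratio was 1.20. It was 1.15 over 7561 shared symbols of all kinds, so that a higher opossum level was not particular to the members. A median opossum V1 cell held 5 member UMIs and a mouse cell 8, and 93.3% and 98.0% of cells held at least 1. Of the members, 45 opossum and 58 mouse genes reached 100 UMIs in V1. The other 23 and 32 were too sparse to describe by depth or label, and 2 opossum members (KCNJ15 and KCNK17) and 1 mouse member (Kcnk18) had no UMI in V1.

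The 12 highest members held 67.0% of opossum and 59.3% of mouse member UMIs. In the opossum the Kv4 channel KCND2, which carries the fast inactivating A-type current, came first at 7.0 (regions 7.49, 6.83 and 6.36). It was followed by its calcium-binding partner KCNIP3 at 4.63 (4.71, 4.42 and 4.91), the EAG channel KCNH7 at 4.23 (4.25, 4.57 and 3.50) and the G-protein-gated rectifier KCNJ3 at 3.97 (3.92, 4.23 and 3.52). The lowest KCND2 region lay above the highest region of KCNIP3. The regions of KCNH7 overlapped those of both KCNIP3 and KCNJ3, and KCNIP3 and KCNJ3 did not overlap. KCNH1 (2.65), KCNJ9 (2.63), KCNQ5 (2.46), KCND3 (1.91), the sodium-activated KCNT2 (1.84), the Kv3 channel KCNC1 (1.64) and the leak channel KCNK1 (1.24) were also among the 12. In the mouse the Kv4 partner Kcnip4 was highest at 9.90 (regions 11.5, 11.1, 7.85 and 8.23). The large-conductance calcium-activated Kcnma1 was at 4.61 and Kcnd2 at 3.73, and Kcnh7 (3.20), Kcnq5 (3.15), Kcnq3 (2.27), Kcnj3 (2.05), the Kv beta subunit Kcnab3 (1.82), Kcna6 (1.62) and Kcnc1 (1.61) were also among the 12. Every Kcnip4 region was above every region of Kcnma1, and the region ranges of Kcnab3, Kcna6 and Kcnc1 overlapped.

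**Figure D1:**
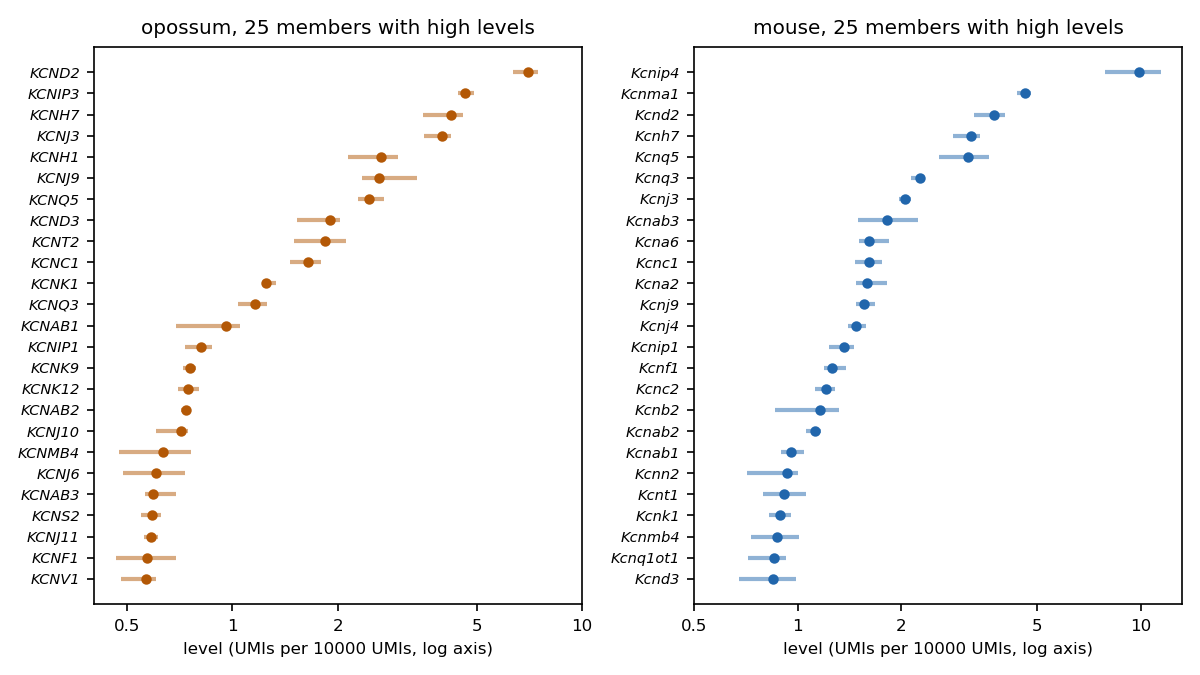
Level in V1 (UMIs per 10000 UMIs, log axis) of 25 members with high levels in each species. Points are all V1 cells and lines span the V1 regions (3 in the opossum, 4 in the mouse). KCND2 at 7.0 and Kcnip4 at 9.90 stand apart from the members that follow.

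No level was scaled by gene length, because a captured molecule counts once whatever its length. In the mouse, for which the annotation gives lengths, level and exonic length had a Spearman's rho of 0.341 over 58 members and level and genomic span 0.386, and 9 of the first 12 members stayed among the first 12 per kilobase of exon. Exons of another annotated gene overlapped those of 48 of the 91 mouse features, and reads in such overlaps cannot be assigned with certainty.

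Summed by subfamily, the order of the species differed. In the opossum the auxiliary subunits (8.94), Kv4 (8.90), the inward rectifiers (8.65) and the EAG channels (8.19) held similar summed levels, followed by Kv7 at 4.83. In the mouse the auxiliary subunits (17.3) and Kv7 (10.8) led, followed by the calcium- and sodium-activated channels (7.55), the inward rectifiers (6.79), the EAG channels (5.28) and Kv4 (4.65). Kv1 was 0.926 in the opossum and 3.60 in the mouse, Kv3 2.00 and 3.74, the silent subunits 2.40 and 2.90, and the K2P channels 3.71 and 2.55. The lists of genes behind these sums are not the same. Kcnip4, Kcnma1, Kcnb2 and Kcnc2 are among 24 mouse members with no opossum member of that symbol, which are not analysed here in the opossum, and the 24 held 30.8% of the mouse member UMIs.

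**Figure D2:**
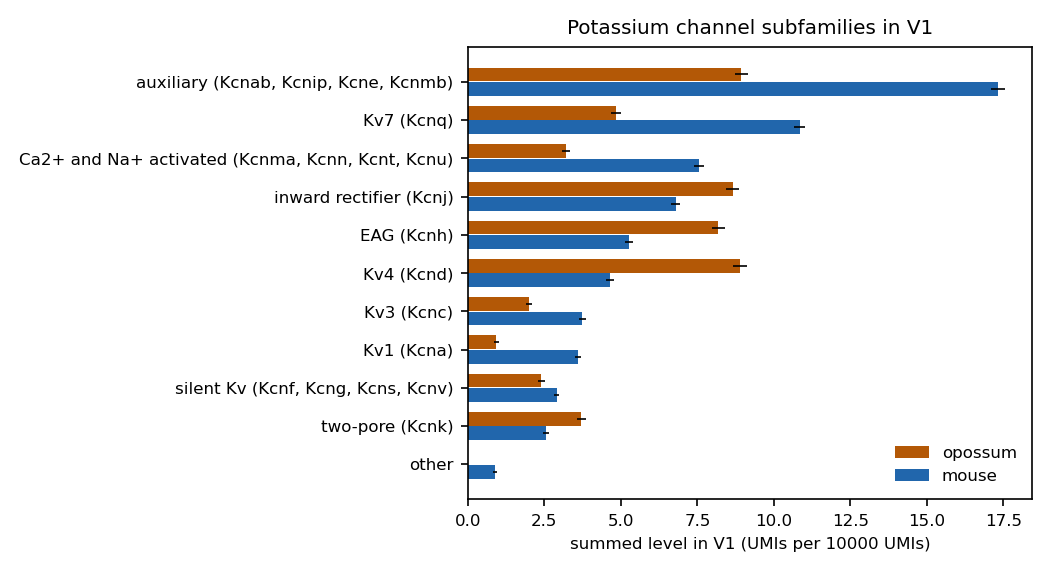
Summed level in V1 (UMIs per 10000 UMIs) of potassium channel subfamilies, with exact Poisson intervals at 95% as black lines. Opossum bars are longer for Kv4, EAG, inward rectifier and K2P genes, and mouse bars for the other subfamilies shown, which partly rest on symbols measured in 1 species.

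Some members had a large share of their molecules in few cells. The spread over cells was measured as a dispersion, the summed squared difference between a cell's UMIs and the number its depth predicts over the summed prediction, which is 1 for counts that follow depth alone. Its median was 1.80 over the tested opossum members and 1.61 over all 8846 features with at least 100 UMIs, and 1.56 and 1.52 (11402 features) in the mouse. In the opossum KCNH7 (7.44), KCNT2 (6.47), KCND2 (6.07) and KCNH1 (5.96) lay above the 99th percentile of all features, which was 4.46 and is passed by 1.01% of features. In the mouse Kcnip4 (5.88), Kcnq5 (3.12), Kcnh7 (2.88), Kcnd2 (2.54) and Kcnb2 (2.49) lay above theirs, which was 2.34 and is again passed by 1.01%. KCND2 (Kcnd2) and KCNH7 (Kcnh7) were thus among them in both species. The 1% of opossum cells with the most KCNT2 (48 cells) held 39.2% of its UMIs, and single cells held up to 34 KCNT2, 36 KCNH7 and 41 KCNH1 UMIs. The richest mouse cell held 60 Kcnip4 UMIs. Dispersion rose with the number of UMIs, with a Spearman's rho of 0.711 over the opossum and 0.368 over the mouse members (0.251 and 0.197 over all features), and with genomic span over the mouse members (0.525). These measures were added after the values had been seen. What sets these cells apart was not tested.

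Depth was scaled in each region from 0 at its top, the upper edge of layer 2/3, to 1 at its bottom, the lower edge of layer 6, and divided into 3 equal zones, and the level in the upper zone was set against that in the lower. The opossum zones held 1576 upper and 1490 lower cells, and the mouse zones 3301 and 2949. A difference between depths can reflect fewer cells of a type or less RNA per cell, which cannot be told apart in the pooled levels. A member was called for an end if its level there was at least 1.5-fold that of the other end. In the opossum 10 of 45 members were called for the upper zone, where 8.35% of all features were, and 9 for the lower zone, where 8.65% were. In the mouse 12 of 58 were called for the upper zone, where 6.29% of all features were, and 5 for the lower zone, where 5.11% were. The median level in the lower zone over that in the upper zone was 0.923 for opossum members and 0.869 for mouse members, and 1.02 and 1.00 for all features. Oligodendrocyte markers were higher in the lower zone in both species, by 1.66 to 2.68-fold for the 4 measured in the opossum and by 2.12 to 2.78-fold for the 5 in the mouse, and their part in the calls was not tested. Among cells whose class label was glutamatergic, whatever their subclass label, 10 of 41 opossum members were called for the upper zone (8.73% of all features) and 8 for the lower (9.06%). The class label was given apart from the subclass label, and these 3752 opossum cells include cells with a glial or interneuron subclass label. The mouse had 9 of 52 for the upper (6.9% of all features) and 5 for the lower (5.18%). Members called there and not over all cells were KCNJ6 (1.68-fold) and KCNK1 (1.52-fold) for the upper and KCNJ10 (1.57-fold) for the lower zone of the opossum, and Kcnab3 (1.64-fold, upper) and Kcnn2 (1.65-fold, lower) in the mouse. Of the members called over all cells, KCND3 and KCNAB3 in the opossum and Kcnh3, Kcnj6 and Kcnj10 in the mouse were not called among glutamatergic cells, and KCNG2, KCNG3, Kcnh4 and Kcnk4 had too few UMIs there. Under every alternative run, 11 of the 19 opossum and 9 of the 17 mouse depth calls over all cells stayed past the limit.

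EAG channels made up 4 of the members called for the upper zone in each species, of 6 opossum and 5 mouse genes tested. KCNH8, an EAG-group channel of the Elk type, had the largest opossum fold at 4.55 (2.59 to 8.48), from 59 UMIs in the upper and 16 in the lower zone, with 3.71, 4.16 and 8.86 in the regions. KCNH5, a channel of the eag type, followed at 3.79 (2.91 to 4.98) with 2.99, 4.85 and 4.07 in the regions, and its mouse counterpart Kcnh5 had the largest mouse fold at 4.76 (3.43 to 6.72) with 7.86, 2.81, 4.09 and 3.32. The silent subunit KCNV1 was 3.68-fold higher (2.88 to 4.73) with 4.38, 4.18 and 1.86 in the regions. All regions of these channels lay on the same side. KCNH1, another eag-type channel, was 2.49-fold higher (2.17 to 2.85) in the opossum and Kcnh1 1.80-fold (1.53 to 2.11) in the mouse. KCNQ5, which carries part of the slow M current, was 2.03-fold higher (1.82 to 2.27) in the opossum and Kcnq5 2.10-fold (1.94 to 2.28) in the mouse. The KCNQ5 folds were alike over regions, with 1.92, 2.20 and 1.96 in opossum regions and 2.03, 2.14, 2.16 and 2.19 in mouse regions. The silent subunit KCNG3 was 2.65-fold higher but rested on 58 and 27 UMIs and ran the other way in 1 region (0.86, 4.57 and 23.6).

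The Kv4 channels KCND2 (2.34-fold, 2.18 to 2.52) and KCND3 (1.53-fold, 1.34 to 1.74), KCNH7 (2.07-fold, 1.86 to 2.29) and the Kv3 channel KCNC4 (1.77-fold, 1.23 to 2.56) were also called for the upper zone in the opossum. The KCND2 folds of 2.31, 2.39 and 2.32 were nearly the same in the 3 regions. In the mouse Kcnd2 fell just short of the limit, with a lower-over-upper ratio of 0.669, and Kcnh7 was at 1.44-fold. The other mouse members called for the upper zone were the Kv2 channel Kcnb2, which was 3.50-fold higher (3.01 to 4.08) with 3.31, 3.45, 3.63 and 3.81 in the regions, Kcnh4 (2.25-fold), the silent subunit Kcns1 (2.05-fold), Kcnip4 (1.73-fold), the G-protein-gated rectifier Kcnj6 (1.71-fold), the leak channels Kcnk4 (1.66-fold) and Kcnk10 (1.51-fold), the Kv1 channel Kcna2 (1.66-fold) and Kcnh3 (1.56-fold). Of these, Kcns1 ran the other way in region 1 (0.88) and Kcnk10 in regions 3 and 4 (0.88 and 0.78).

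Leak channels and auxiliary subunits made up most of the opossum members called for the lower zone, 3 of 6 tested K2P and 4 of 7 tested auxiliary genes, and 2 of the 5 mouse members called there were K2P genes. KCNK2 (TREK-1), a leak channel that senses stretch and lipids, was 3.01-fold higher (2.20 to 4.17) in the opossum with 3.34, 2.86 and 2.74 in the regions, and Kcnk2 was 1.67-fold higher (1.40 to 2.01) in the mouse with 1.49, 2.28, 1.53 and 1.89. KCNK3 (TASK-1), an acid-sensitive leak channel, was 3.27-fold higher (2.19 to 5.01) with 4.73, 5.13 and 1.39, and Kcnk3 1.96-fold (1.33 to 2.91) with 1.82, 2.51, 1.42 and 2.38. All 7 regions of the species lay on the same side for both genes. The related KCNK9 (TASK-3) was called in the opossum (1.72-fold, 1.41 to 2.12) and stood at 1.09-fold in the mouse. The silent subunit KCNG1 had the largest opossum fold at 4.05 (2.42 to 7.14), from 18 and 90 UMIs, and Kcng1 was at 1.09-fold in the mouse. KCNIP1 (2.52-fold), KCNMB4, the neuronal beta subunit of the calcium-activated channel (2.32-fold), KCNG2 (1.76-fold), KCNAB1 (1.74-fold) and KCNAB3 (1.57-fold) completed the opossum list. KCNG2 rested on region 1 (5.55, with 1.04 and 0.85 in the others), and without that region its fold was 0.986. In the mouse, Kcna6 was 1.85-fold higher (1.64 to 2.07), with 2.01, 2.56, 1.82 and 1.38 in the regions, and was joined by the astrocyte rectifier Kcnj10 (1.59-fold) and the small-conductance channel Kcnn1 (1.56-fold). KCNA6 in the opossum had 19 UMIs in V1, too few to describe by depth.

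In 10 equal bins of the depth, the members called for an end followed different courses. Opossum KCNV1 was highest in the first bin (1.64) and fell to 0.0582 in the fifth. KCNH5 was highest in the third bin in the opossum (1.38) and in the fourth in the mouse (0.976). KCNH8 rose from 0.114 in the first bin to 1.22 in the fifth, and KCNH1 and KCNH7 were highest in the sixth (5.0 and 7.96) and fell to 1.14 and 1.11 in the last. Thus KCNH8, KCNH1 and KCNH7 were highest near the middle of the depth, although the comparison of zones called them for the upper end. KCNQ5 in the opossum had a high and a low stretch (4.67 in the second bin, 0.960 in the fifth and 2.82 in the eighth), whereas mouse Kcnq5 went from 4.69 in the third bin down to 1.46 in the last. KCNK3 was highest in the last opossum bin (0.653), and mouse Kcna6 went from 1.09 in the first bin to 2.26 in the last.

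**Figure D3:**
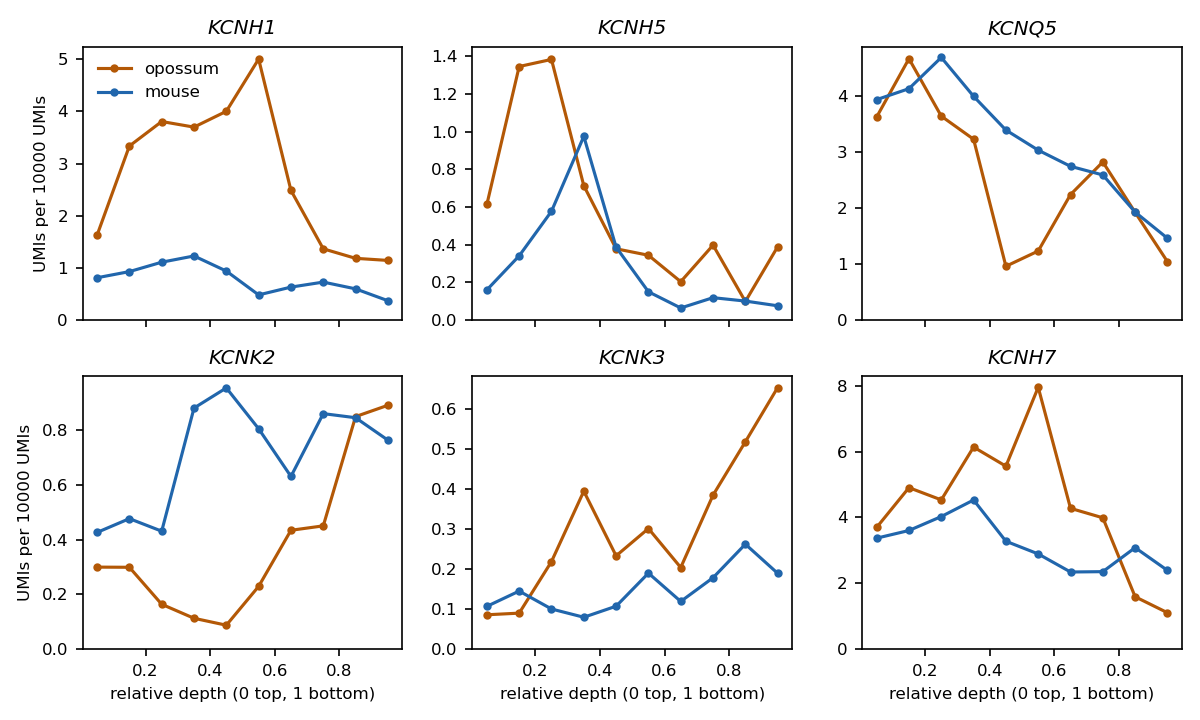
Level (UMIs per 10000 UMIs) against relative depth in 10 bins for the 5 members called for the same end in both species and for KCNH7, with 1 line per species over all V1 cells. KCNH5 and KCNQ5 are high in the upper bins of both species, KCNK2 and KCNK3 rise towards the bottom in the opossum, and opossum KCNH1 and KCNH7 peak in the sixth bin at 5.0 and 7.96.

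Within a single label the depth contrast can be read without a change of label, although cells of a label may still differ in type with depth. The largest glutamatergic label of the opossum is IT_A, intratelencephalic neurons set here beside layer 2/3 of the mouse (1596 cells), and its cells were split at their median depth. This split was added after the values had been seen. Of 29 members with at least 100 UMIs in IT_A, 4 were at least 1.5-fold higher in the upper group (6.33% of all features were) and 5 in the lower (5.97%). KCNV1 was 3.89-fold higher in the upper group (2.81 to 5.48), with 3.39, 7.50 and 1.69 in the regions, KCNH5 2.17-fold, the silent subunit KCNF1 1.99-fold and KCNQ5 1.77-fold. KCNH8, KCNH1 and KCNH7 were higher in the lower group, with upper-over-lower ratios of 0.27 (0.17 to 0.42), 0.52 (0.46 to 0.60) and 0.58 (0.52 to 0.64), as were KCNAB1 (0.62) and KCNK12 (0.64). KCNH5 and KCNH1, which both favoured the upper zone of the whole depth, therefore lay on opposite sides within IT_A. Contrasts of this size also stood in glial labels split in the same way. KCND2 was at 1.43-fold in IT_A, 1.92-fold in OD and 1.63-fold in Astro. KCNQ5 was at 1.82-fold in L6CT, where 116 of 2402 features were past 1.5-fold, and at 1.15-fold in Astro. In OD, KCNJ9 (2.06), KCNH7 (1.95) and KCNIP3 (1.65) were past 1.5-fold too (85 of 1491 features were), and KCNC1 (1.08) and KCNJ3 (1.06) were not. The part of RNA from neighbouring cells in the contrasts within labels was not tested. In the mouse, the largest glutamatergic label is L4 (1969 cells). Of its 39 members with enough UMIs, Kcnh3 was higher in the upper group (1.75-fold, where 2.58% of all features were called), and Kcnip3 (0.65) and Kcnk2 (0.67) in the lower (2.76%). In mouse L2/3, the label set beside IT_A (1438 cells), Kcnv1 stood at 1.20, Kcnq5 at 1.13, Kcnh1 at 1.12 and Kcnh7 at 1.15. Kcnab3 was higher in its lower group (0.58). Of 4274 features, 118 were called there for the upper and 116 for the lower group. In mouse OD, Kcnc1 (2.06), Kcna2 (1.75) and Kcnq5 (1.71) were past 1.5-fold (68 of 1838 features were), and Kcnd2 (1.46) and Kcnh7 (1.20) were not.

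Levels by label were compared with those of all other labelled V1 cells, for labels with at least 25 cells, and a member was called where its level was at least 2-fold higher. At least 1 label was called for 24 of 43 members in the opossum, where 22.9% of all features had one, and for 17 of 55 in the mouse, where 16.3% had one. Opossum labels had 30 calls in all and mouse labels 19, of which 13 and 10 stayed past 2-fold under every alternative run. The authors' separate class label matched the class of the subclass for nearly all glutamatergic cells of the opossum but for fewer of its other cells, for 197 of 354 in Pvalb, 84 of 171 in Sst, 19 of 38 in Vip, 359 of 495 in Astro, 230 of 565 in OD, 29 of 100 in OPC, 14 of 65 in Endo and 17 of 32 in Micro.

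**Figure D4:**
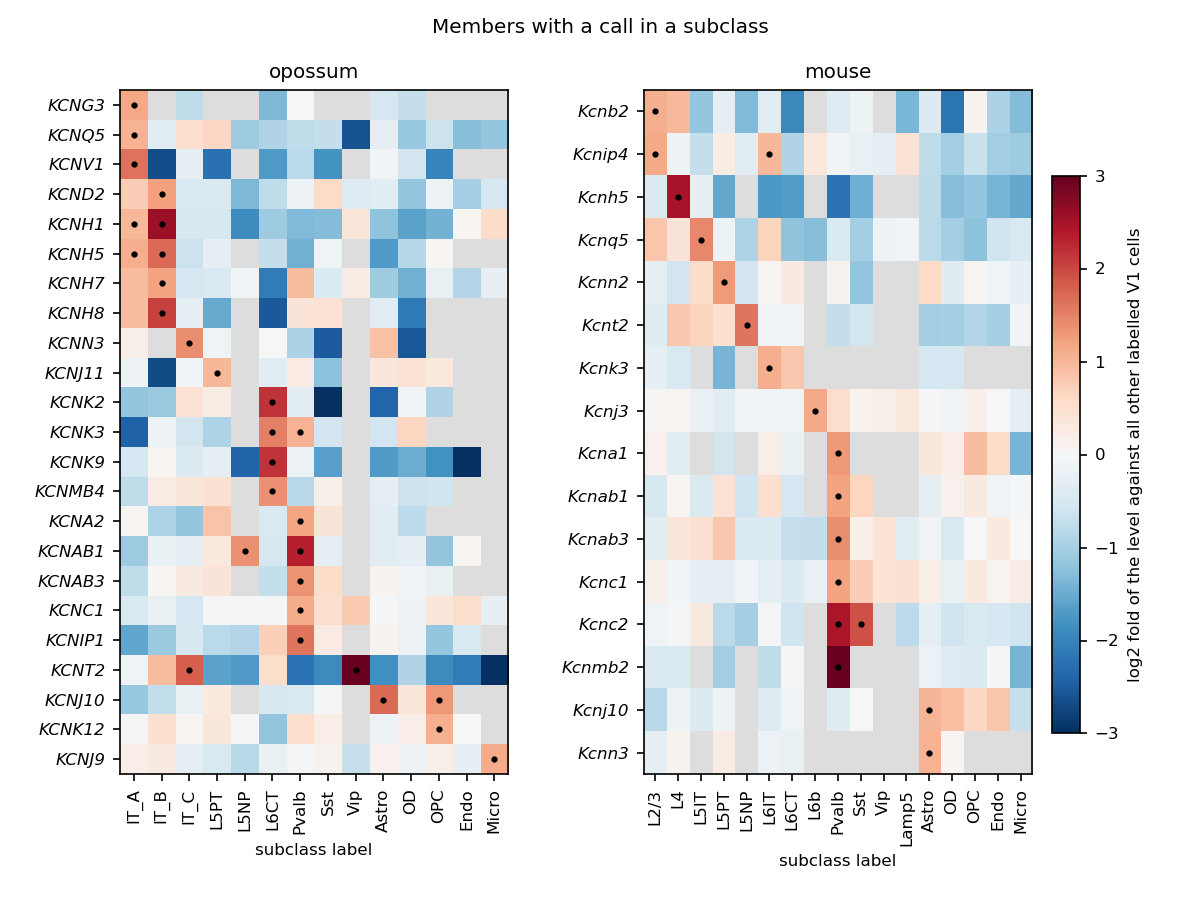
Log2 fold of the level in each subclass label against all other labelled V1 cells, for members with a call, with black dots on calls (at least 2-fold) and grey where too few UMIs were expected. Colours end at 3 on the log2 scale. Calls gather in opossum IT_A, IT_B, L6CT and Pvalb and in mouse Pvalb.

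EAG channels gave 6 of the 11 calls in the opossum labels IT_A and IT_B. In IT_B, the label set here beside layer 4 of the mouse (126 cells), 6 of 38 members were called, against 5.73% of all features. KCNH1 was 5.88-fold higher in IT_B (5.17 to 6.68), at a level of 13.7 against 2.32, with 6.80, 6.37 and 2.94 in the regions. KCNH8 was 4.11-fold higher (3.95, 4.29 and 3.07 in the regions) from 28 UMIs, and KCNH5 3.25-fold (2.38, 4.94 and 0.575, and 1.73 without region 2), of which 2 cells held 44.4% of 36 UMIs. KCND2 (2.34-fold, level 15.9) and KCNH7 (2.31-fold, level 9.57) were also called, and their regions all lay above 1. Of all V1 labels, IT_B thus had the highest levels of KCND2, KCNH1 and KCNH7. In IT_A, 5 of 43 members were called (1.21% of all features). KCNV1 was 3.09-fold higher in IT_A (2.51 to 3.83) at a level of 1.04, and stood at 0.0943 in IT_B from 2 UMIs. KCNG3 (2.24-fold), KCNH5 (2.13-fold), KCNQ5 (2.08-fold) and KCNH1 (2.01-fold) were also called there, close to the limit. Each of these 4 fell below 2-fold under some alternatives, KCNG3 to 1.88, KCNH5 to 1.63, KCNQ5 to 1.91 and KCNH1 to 1.47. The KCNH1 folds were 1.65, 1.87 and 4.07 in the regions, and 1.76 without region 3. In the mouse, L4 (1 of 55 members, 0.533% of all features) was called for Kcnh5 alone, 5.54-fold (4.45 to 6.93) with 7.10, 6.04, 4.02 and 4.60 in the regions. Kcnh1 was 1.92-fold in mouse L4, under the limit, and Kcnh8 had 9 UMIs there, too few to test. L2/3 (2 of 55, 0.552%) was called for Kcnip4 (2.20-fold) and Kcnb2 (2.13-fold).

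In the opossum, K2P genes were called in L6CT and in no other glutamatergic label. L6CT, corticothalamic neurons of layer 6 (568 cells), was called for 4 of 43 members (2.08% of all features), and 3 of them are K2P channels. KCNK9 was 4.52-fold higher (3.78 to 5.40) with 4.55, 3.98 and 6.07 in the regions, KCNK2 4.47-fold (3.48 to 5.72) with 4.02, 5.78 and 3.62, and KCNK3 2.84-fold (2.10 to 3.81) with 2.95, 2.39 and 3.32. KCNMB4 was 2.58-fold higher. In mouse L6CT, Kcnk9 stood at 1.21-fold, Kcnk2 at 1.34-fold, Kcnk3 at 1.75-fold and Kcnmb4 at 1.02-fold, and 0 of 55 members and 0.607% of all features were called. With 1 animal each, the difference between the species was not tested. In IT_C (262 cells, 2 of 43 members, 1.81% of all features) KCNT2 was 3.46-fold higher (2.19, 6.02 and 2.05 in the regions) and the small-conductance channel KCNN3 2.65-fold. In L5PT (115 cells, 1 of 39, 3.1%) KCNJ11, a subunit of the ATP-sensitive channel, was 2.01-fold higher, with 3.37, 1.35 and 0 in the regions and 1.04 without region 1. In L5NP (39 cells, 1 of 19, 3.16%) KCNAB1 was 2.59-fold higher from 17 UMIs. The L5PT call thus rested on region 1.

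In the mouse, L5IT (135 cells) was called for Kcnq5, 2.70-fold with 3.19, 1.76, 3.49 and 2.63 in the regions (1 of 42 members, 1.65% of all features), and L5PT (262 cells) for the small-conductance channel Kcnn2, 2.43-fold with 1.82, 3.56, 2.26 and 2.41 (1 of 54, 1.67%). L6IT (425 cells, 2 of 55, 0.993%) was called for Kcnk3 (2.13-fold from 20 UMIs, with 0.773 in region 3) and Kcnip4 (2.01-fold). L5NP (60 cells, 1 of 32, 2.42%) was called for Kcnt2, 3.04-fold from 20 UMIs, and L6b (26 cells, 2 of 15, 2.95%) for Kcnj3, 2.20-fold from 17 UMIs, among others. Kcnt2 in mouse L5NP and KCNT2 in opossum IT_C fall in different labels, and KCNT2 was at 0.31-fold in opossum L5NP.

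Of the interneuron labels, Pvalb had the most calls in both species. Pvalb is the label of parvalbumin interneurons, which are known for fast spikes. The gene Pvalb was not among the opossum features, so the opossum label could not be checked by its own marker. Mouse Pvalb was called in the mouse label. The GABAergic markers GAD1, GAD2 and SLC32A1 were called in opossum Pvalb, but GAD2 and SLC32A1 were called in opossum Sst too. In the Pvalb label, 6 of 43 opossum members (1.97% of all features) and 6 of 46 mouse members (2.38%) were called. The beta subunits Kcnab1 and Kcnab3 and the Kv3 channel Kcnc1 were called in both, and the beta subunit Kcnab2 stood at 1.13-fold in the opossum and 1.07-fold in the mouse. KCNAB1 was 5.0-fold higher (4.21 to 5.91) in the opossum with 5.67, 3.68 and 8.30 in the regions, and Kcnab1 2.30-fold (1.73 to 3.01) in the mouse with 2.39, 3.62, 1.98 and 1.74. KCNAB3 was 2.55-fold higher (1.95 to 3.30) and Kcnab3 2.64-fold (2.19 to 3.17), and KCNC1 2.15-fold (1.82 to 2.53) and Kcnc1 2.30-fold (1.85 to 2.83). All 7 regions were above 1 for these 3 genes. As means over cells, KCNC1 was at 1.81-fold. KCNIP1 (3.06-fold), the Kv1 channel KCNA2 (2.26-fold) and KCNK3 (2.05-fold, with 0.391 in region 3 and 1.31 without region 1) were also called in opossum Pvalb. In mouse Pvalb, Kcnip1 stood at 1.83-fold and Kcna2 at 0.694-fold, and Kcnk3 had too few UMIs. Kcnmb2 (8.46-fold from 39 UMIs, 5.82 to 12.0), the Kv3 channel Kcnc2 (5.43-fold, 4.59 to 6.40) and Kcna1 (2.45-fold from 13 UMIs, 1.28 to 4.28) were also called in mouse Pvalb. In the opossum, KCNA1 stood at 1.28-fold there, KCNMB2 had too few UMIs and Kcnc2 has no member of that symbol. With the opossum cells whose class label matched their subclass, all 6 opossum Pvalb calls stayed past the limit, at 2.59-fold (KCNA2) to 6.58-fold (KCNAB1). Kcnc2 was also called in mouse Sst (3.73-fold, 1 of 43 members, 1.94% of all features), while Sst of the opossum had 0 of 39 calls (2.24%).

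Opossum Vip (38 cells, 1 of 14 members, 4.03% of all features) gave the largest fold of all calls, KCNT2 at 8.75 (6.86 to 11.0). It came from few cells. Only 10 of the 38 cells held a KCNT2 UMI, 2 cells held 49 of the 77 UMIs (63.6%), and the region folds were 15.7, 2.54 and 0, so that the counting interval does not cover the spread between regions, and without region 1 the fold was 1.98. Mouse Vip (0 of 14, 3.1%) and Lamp5 (0 of 19, 2.49%) had no call.

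Among non-neuronal labels, Astro had calls for the rectifier of astrocytes in both species. KCNJ10 was 3.22-fold higher (2.59 to 4.00) in opossum Astro, with 2.93, 3.43 and 3.47 in the regions (1 of 43 members, 3.17% of all features), and Kcnj10 2.03-fold (1.43 to 2.82) in mouse Astro, with 1.62, 1.35, 2.28 and 3.79 (2 of 55, 2.71%). The mouse call lay close to the limit, and Kcnj10 fell below 2-fold under 4 alternatives, to 1.70 without region 4. Kcnn3 was the other mouse call, 2.05-fold from 11 UMIs with an interval that includes 1 (0.989 to 3.82). KCNJ10 (2.47-fold) and KCNK12 (2.10-fold) were called in opossum OPC (2 of 33, 1.84%), and KCNK12 was at 1.36-fold in the OPC cells with a matching class label. The 32 opossum cells labelled Micro were called for KCNJ9 (1 of 10, 2.99%), which fell below 2-fold under 3 alternatives, to 1.86. Of the microglial markers, CSF1R was 12.0-fold higher there from 3 UMIs and CX3CR1 9.12-fold from 4, while C1QA had 0 of its 20 V1 UMIs there and P2RY12 had 0 in all of V1, so that the check of the label rests on few molecules. No member was called in opossum OD (1.49% of all features) and Endo (2.69%) or in mouse OD (1.51%), OPC (1.56%), Endo (1.59%) and Micro (1.31%). The summed member level was lowest in OD and Endo of the opossum (36.1 and 36.3, against 83.0 in IT_B) and in OD and Micro of the mouse (56.6 and 56.7, against 83.4 in L2/3).

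Genes listed for a known place were read as groups. The lists were chosen with earlier results of these data known, so their counts are a description and no independent check. For all features, the share called was 1.97% in opossum Pvalb and 2.38% in mouse Pvalb, 12.4% and 6.33% in at least 1 glutamatergic label, 8.35% and 6.29% for the upper zone, and 3.17% and 2.71% in Astro. Of 4 measured fast-spiking genes, 3 were called in opossum Pvalb (KCNAB3, KCNA2 and KCNC1), and of 6 in the mouse 4 were (Kcnc1, Kcnc2, Kcna1 and Kcnab3), while Kcna2 was not and Kcns3 had too few UMIs in Pvalb. Of 8 listed pyramidal genes, 6 were members in the opossum, of which 5 were called in a glutamatergic label and 4 for the upper zone. In the mouse all 8 were members, 3 were called in a glutamatergic label and 3 for the upper zone. Of the astrocyte genes, 1 of 2 opossum and 1 of 3 mouse genes tested were called in Astro. The genes listed for microglia (Kcnk13, Kcnk6, Kcna3 and Kcnn4) did not reach 100 UMIs in either species, and of the vessel genes Kcnj8 and Kcnj2 only mouse Kcnj2 did, with no call.

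Proteins that join these channels without a Kcn name were set beside them. DPP10, which joins Kv4 channels, was at 2.06 in the opossum and Dpp10 at 11.6 in the mouse, DPP6 at 2.78 and Dpp6 at 1.60, and the anchor DLG4 at 4.63 and Dlg4 at 5.41. The gamma subunit LRRC55 of the calcium-activated channel was called in opossum L6CT (3.41-fold), as its beta subunit KCNMB4 was, while mouse Lrrc55 had no call. Cntnap2, which gathers Kv1 channels on axons, was called in mouse Pvalb (3.00-fold) and Sst.

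Between the species, 66 symbols were members in both, 50 of them with at least 100 UMIs in at least 1 species and 40 with that many in both. Levels had a Spearman's rho of 0.662 over the 50 members and 0.615 over 7561 shared symbols of all kinds. At least 2-fold higher in the opossum were 14 of the 50 (25.4% of all shared symbols were), and in the mouse 7 (19.2%). The largest ratios towards the opossum were KCNK12, a silent K2P subunit, at 20.8-fold (15.3 to 28.9, from 519 and 45 UMIs), KCNH8 at 16-fold (10.7 to 24.8), KCNG3 at 9.80-fold (6.12 to 16.4), KCNIP3 at 9.76-fold (8.94 to 10.7, from 3211 and 594 UMIs) and KCNH1 at 3.39-fold (3.14 to 3.67). Towards the mouse they were Kcna6 at 59.0-fold (37.7 to 98.2, from 2024 and 19 UMIs), Kcnj16 at 6.56-fold, Kcna2 at 6.05-fold (5.20 to 7.08) and Kcnmb2 at 5.65-fold. The region ranges of the species do not overlap for any of these 9 genes. The genes were picked by the ratios of these same levels, so this adds no support to them. KCNC1 (1.64 and 1.61) and KCNAB1 (0.961 and 0.959) were alike, with ratios of 1.02 (0.947 to 1.10) and 1.00 (0.910 to 1.10). Genomes, gene ends and RNA integrity differ between the sections, and their part in these ratios was not tested.

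The depth contrast was also set side by side. Over the 40 members with enough UMIs in both species, the lower-over-upper ratios had a Spearman's rho of 0.609, and over 5836 shared symbols of all kinds 0.204. The members lay on the same side of 1 in 31 of 40 cases, against 57.1% of all shared symbols. KCNH1, KCNH5 and KCNQ5 were called for the upper zone in both species (of 8 opossum and 7 mouse calls among shared members), KCNK2 and KCNK3 for the lower zone in both (of 8 and 4), and 0 were called on opposite sides. Of all shared symbols, 1.61% were called for the upper zone in both species, 1.27% for the lower zone in both and 0.908% on opposite sides. KCNAB3 came nearest to that, 1.57-fold higher in the lower zone of the opossum and 1.47-fold higher in the upper zone of the mouse. By label, KCNH5 (IT_B and L4), KCNC1, KCNAB1 and KCNAB3 (Pvalb) and KCNJ10 (Astro, at 2.03-fold in the mouse) were called in paired labels of both species. KCNH5 in IT_B was at 0.575 in region 3, and 2 cells held 44.4% of its 36 UMIs in that label. The share of all shared symbols called in paired labels is not given, so these calls are a description only. KCNH1, KCND2 and KCNH7 were called in opossum IT_B, and in mouse L4 Kcnh1 stood at 1.92-fold, Kcnd2 at 1.22-fold and Kcnh7 at 1.41-fold. KCNV1 and KCNQ5 were called in opossum IT_A, and in mouse L2/3 Kcnv1 stood at 1.15-fold and Kcnq5 at 1.78-fold.

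**Figure D5:**
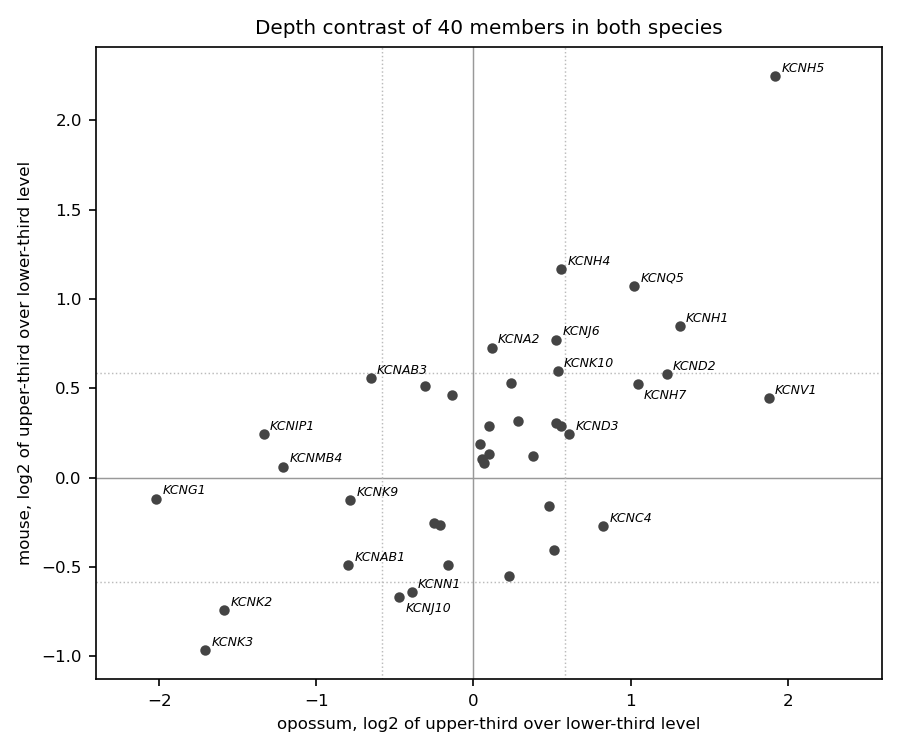
Log2 of the level in the upper zone over that in the lower zone, opossum against mouse, for the 40 members with at least 100 UMIs in both species, with dotted lines at 1.5-fold. KCNH5, KCNQ5 and KCNH1 lie at the upper right and KCNK2 and KCNK3 at the lower left, and no member lies past the lines on opposite sides.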

How the data were processed

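UMI counts per cell and gene were deposited by the authors, who ran the Stereo-seq Analysis Workflow, aligned the tissue by hand and adjusted cell borders, and a genome with extended gene ends for the opossum and GRCm39 for the mouse. Cells under 50 genes or 100 UMIs and genes in 8 cells or fewer were removed. Cell positions, V1 regions and subclass and class labels are likewise the authors' deposited columns, and cells passing the column quality label were used. The members and lists were chosen with earlier results of these data known.

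UMIs were summed over cells and given per 10000. Depth ran along the smallest rectangle enclosing a region, its top being the side of IT_A or L2/3 and its bottom that of L6CT. Members with at least 100 V1 UMIs were described by depth (3 equal zones, at least 1.5-fold) and by label (labels of at least 25 cells, at least 5 expected UMIs, at least 2-fold). Named genes are the 12 highest members of each species, called members, the 5 largest species ratios in each direction, and the listed genes with a known place, subfamilies and partners. A few genes enter the counts but are not reported here by name. Genes were not replicates and regions of 1 animal are no replicates of a species, so no test was run and no sample was left out. Opossum V1 held 6933475 UMIs and mouse V1 12522687. Intervals at 95% cover counting error only. Alternatives were other fold limits, a split of the depth at its middle, means over cells, other count minimums, glutamatergic cells and each region left out. The steps were tested on simulated data. Regions were handled with shapely 2.1.2, intervals with scipy 1.17.1, tables with pandas 2.3.3 and numpy 2.4.6 and figures with matplotlib 3.10.9, in Python 3.11.15.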

Additional observations from a re-analysis of the deposited data

How the results depend on the processing

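Of 176 values of the 17 main results under alternatives, 144 were kept and 32 moved. A count was kept if within 1.5-fold of the main count, so that a lower count could still be kept. Any other value was kept if within 1 standard deviation over regions, or over pairs of regions for the rho between species. The opossum member level was 49.8 as a mean over cells. With a fold limit of 3, 10 opossum and 4 mouse members were called in a subclass, and with a limit of 1.5, 33 mouse members were. Splitting the depth at its middle called 6 opossum members for the upper end. With the lowest depth limit tried, 18 opossum members were called for the upper zone in all and in glutamatergic cells, and in the mouse 22 for the upper and 11 for the lower zone (23 and 11 in glutamatergic cells). With a limit of 2, 5 opossum members were called for the lower zone in both sets of cells, and in the mouse 5 for the upper and 0 for the lower zone (3 and 1 in glutamatergic cells). At 200 UMIs or more, 3 mouse members were called for the lower zone of glutamatergic cells. The median mean relative depth of member UMIs, 0.472 (opossum) and 0.471 (mouse), became 0.449 and 0.425 with unscaled depth and 0.509 and 0.503 with unscaled UMIs, and a mean over cells is the same calculation as the main one. Between species, means over cells gave 11 members higher in the mouse, scaling to shared symbols 9 higher in the opossum, and glutamatergic cells a rho of 0.592. The cause of these moves was not tested, beyond the limits themselves.

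Leaving out 1 region at a time gave member levels of 52.0 to 53.7 in the opossum and 67.2 to 69.9 in the mouse, 18 to 22 and 11 to 15 members called in a subclass, 9 to 12 and 10 to 13 for the upper zone, 6 to 9 and 4 to 6 for the lower zone, 9 to 13 and 8 to 11 for the upper zone of glutamatergic cells, 6 to 9 and 3 to 6 for the lower, and mean depths of 0.466 to 0.483 and 0.470 to 0.475. Between species it gave 10 to 14 members higher in the opossum, 6 to 8 in the mouse and a rho of 0.629 to 0.664. Of 1120 single fold values, 1017 kept their side of the limit, 101 fell below it and 2 reversed, both without region 1: KCNG2 for the opossum lower zone (0.986 to 2.72 over the regions left out) and Kcnk10 for the upper zone of mouse glutamatergic cells (0.918 to 2.04). The 10 species ratios followed stayed past 2-fold under the alternatives run. They were picked as the largest in each direction, so this says nothing of smaller ratios. Labels of few cells and members under 100 UMIs are limited by depth. No paired analysis was possible because each species has 1 sample.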
